A study of Mus musculus with 12 samples.

Results

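A set of 8 genes that mark pericytes was followed across the retinas of mice in the oxygen-induced retinopathy (OIR) model: Cd248, Pdgfrb, Cspg4, Aoc3, Rgs5, Kcnj8, Abcc9 and Higd1b. They are 8 of the 36131 genes in the deposited table. They were listed by name as markers of one cell type, and each symbol was matched to 1 Ensembl gene. Cd248 was chosen by a measured value: it had the smallest p-value of all tested genes between O2-IC100 and O2-PBS when all libraries were used, so that contrast is described for the members without a test. Every member had counts in all 12 libraries and passed the filter on low counts.

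RNA sequencing was done on retinas of C57BL/6J wildtype mice at postnatal day 18 (P18), with 1 library per animal and 4 animals per group. The RA-PBS group (animals 1 to 4) stayed in room air (RA) and received PBS as placebo. The O2-PBS group (animals 5 to 8) was kept in 75% O2 starting at P7, was back in room air at P12 and received PBS. The O2-IC100 group (animals 9 to 12) had the same oxygen exposure and received IC100, a humanized antibody against the inflammasome adaptor ASC, at 10 µg/g by intraperitoneal injection on P12, P14 and P16. The labels list the same injection days for the PBS groups, whereas the paper describes its PBS placebo as intravitreal. The RNA came from whole retinas, in which pericytes are a small minority, so fewer pericytes and less RNA per pericyte cannot be told apart.

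Pericytes are mural cells that wrap retinal capillaries and share their basement membrane. Endothelial cells recruit them by secreting PDGF-B, which acts on PDGFRβ at the pericyte surface, and the angiopoietin, TGF-β and Notch pathways help the contact to mature. In the OIR model, high oxygen removes central capillaries, and the return to room air is followed by outgrowth of abnormal vessels. Among the members, Cd248 encodes endosialin, a C-type lectin-like surface protein of activated pericytes and stromal cells. Pdgfrb, Cspg4 (the NG2 proteoglycan) and Aoc3 (a vascular amine oxidase) also encode cell surface proteins. Rgs5 encodes a regulator of G protein signalling, Kcnj8 and Abcc9 encode the pore and the regulatory subunit of the same ATP-sensitive potassium channel, and Higd1b belongs to a family of small mitochondrial proteins.

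The libraries held 14907143 to 24438082 counts. Animal 10 of the O2-IC100 group stood apart: crystallin genes of the lens took 59.0% of its counts (95% Wilson interval 58.96 to 59.00%, counting error only), against at most 4.51% in the others. Rod genes took 0.351% there, against 4.12 to 5.12% in the others. The TMM factor that scales its library size was 0.324, against 1.07 to 1.15 in the others. All its normalized levels depend on that factor. The fold changes and calls of the members are therefore given from all 12 libraries and again without animal 10. RA-PBS animals 2, 3 and 4 also held lens transcripts, at 1.26 to 4.51% of counts, whereas RA-PBS animal 1 held 0.00691%, below every O2-PBS library. Y-linked genes summed to 223 to 324 CPM (counts scaled to the library size) in animals 1, 2, 3, 8, 9, 11 and 12 and to 4.04 to 9.85 CPM in the others, so the O2-PBS group held 1 animal with high Y-linked counts and the O2-IC100 group without animal 10 held only such animals.

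Promoter sequences are shown for the potassium channel pair and for Rgs5, because Kcnj8 and Abcc9 are next to each other in the genome yet gave different values in O2-IC100 below, where Kcnj8 and Rgs5 both overlapped their O2-PBS values. RefSeq promoter entries (mouse build GRCm38.p6, 300 bases, from 250 before to 50 after the start of the gene, read on the strand of the gene) were found for 4 of the 8 members, the fourth being Cspg4. The Rgs5 entry lies at chr1:169655251-169655550 (plus strand), the Kcnj8 entry at chr6:142571565-142571864 (minus strand) and the Abcc9 entry at chr6:142702225-142702524 (minus strand). Capitals mark the E-box CANNTG.
Kcnj8: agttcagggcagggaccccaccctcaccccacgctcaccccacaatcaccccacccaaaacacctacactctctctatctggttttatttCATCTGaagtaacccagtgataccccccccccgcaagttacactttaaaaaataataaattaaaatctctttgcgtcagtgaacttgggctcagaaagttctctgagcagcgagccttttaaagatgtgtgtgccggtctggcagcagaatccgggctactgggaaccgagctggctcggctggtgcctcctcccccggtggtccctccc
Abcc9: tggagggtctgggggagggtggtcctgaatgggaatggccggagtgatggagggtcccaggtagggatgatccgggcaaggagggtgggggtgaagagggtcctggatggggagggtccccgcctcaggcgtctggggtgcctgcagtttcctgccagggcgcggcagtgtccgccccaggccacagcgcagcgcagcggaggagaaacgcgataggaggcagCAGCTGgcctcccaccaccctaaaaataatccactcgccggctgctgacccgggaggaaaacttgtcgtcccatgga
Rgs5: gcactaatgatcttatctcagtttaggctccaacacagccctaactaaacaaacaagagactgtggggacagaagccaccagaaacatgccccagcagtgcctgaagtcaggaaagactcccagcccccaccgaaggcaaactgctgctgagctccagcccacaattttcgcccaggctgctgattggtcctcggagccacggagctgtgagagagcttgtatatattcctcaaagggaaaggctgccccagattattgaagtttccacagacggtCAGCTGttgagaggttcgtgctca

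Each of these 3 windows held 1 E-box, at position -160 in Kcnj8, -27 in Abcc9 and 27 in Rgs5 relative to the start site, and the Cspg4 window held none. The E-box occurs in 72.3% of the 32851 promoters of the same length. The core of the hypoxia response element, ACGTG on either strand, was in none of the 4 windows and in 19.6% of all promoters. The core motif of RBPJ, the DNA-binding factor of Notch signalling (TGGGAA, either strand), was in the Kcnj8 and Abcc9 windows and in 25.6% of all promoters. GC content was 53.3% for Kcnj8, 65.7% for Abcc9, 52.3% for Rgs5 and 60% for Cspg4. These matches describe letters in short windows only.

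The first comparison, O2-PBS against RA-PBS, asked how the pericyte genes differed in the oxygen model without the antibody. High Y-linked counts were found in 3 RA-PBS animals but only 1 O2-PBS animal, so oxygen and this difference cannot be fully told apart. The mean of every member was higher in O2-PBS. Cd248 differed most, by 5.42-fold, and Higd1b, Rgs5, Cspg4 and Aoc3 were 2.34-fold to 2.89-fold higher. Abcc9, Pdgfrb and Kcnj8 differed by 1.69-fold, 1.55-fold and 1.5-fold. The values of 7 members did not overlap between the groups, Kcnj8 being the exception, whereas 7.81% of all tested genes were higher without overlap. A gene was called at a fold change of at least 1.5, p under 0.05 and a Benjamini-Hochberg adjusted p under 0.1 over all tested genes in edgeR's quasi-likelihood test. With all 12 libraries, 2 of 8 members were called higher, Cd248 and Aoc3, against 0.782% of all genes. Without animal 10, 7 of 8 were called higher, all but Kcnj8, against 4.09% of all genes. Animal 10 belongs to neither group compared here and entered through the spread that the 3 groups share. A fit of the RA-PBS and O2-PBS libraries alone called 6 members, all but Pdgfrb and Kcnj8, against 3.53% of all genes. The median log2 fold change was 1.23 over the members and -0.01 over all tested genes. With the log2 CPM of the crystallins as a covariate over all 12 libraries, the log2 fold change was 0.23 for Rgs5 (edgeR adjusted p = 0.768), and was 0.04 for Kcnj8, 0.19 for Abcc9 and 1.08 for Higd1b, none of them called, while Cd248 stayed at 2.44. The same covariate without animal 10, a fit chosen after seeing the data, gave 2.66 for Cd248, 1.37 for Rgs5, 0.62 for Abcc9, 1.87 for Higd1b, 1.13 for Aoc3 and 1.10 for Cspg4, all called, and 0.41 for Pdgfrb and 0.24 for Kcnj8, not called. This comparison shares the O2-PBS libraries with the contrast that placed Cd248 on the list.

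**Figure D1:**
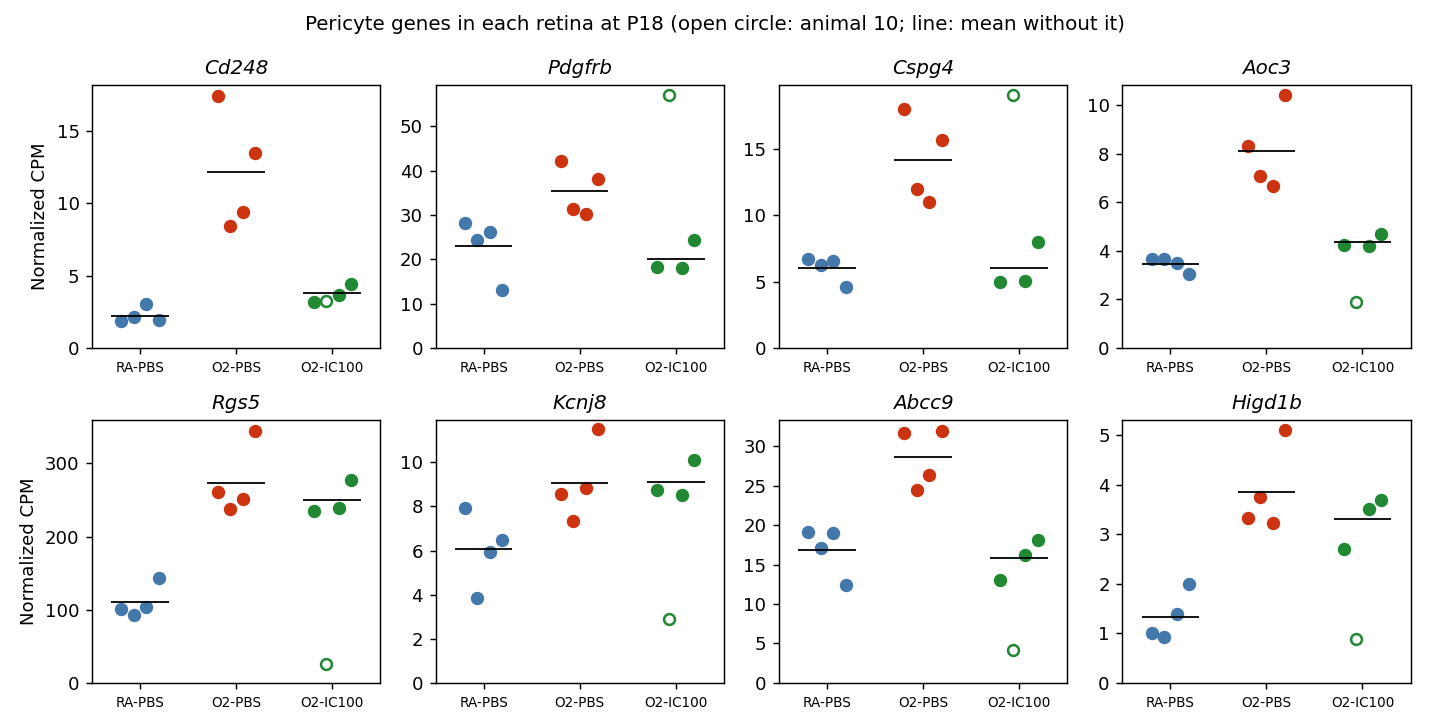
Normalized CPM (vertical axis, linear, starting at 0) of each pericyte gene in each retina, grouped along the horizontal axis by RA-PBS, O2-PBS and O2-IC100. Each point is 1 animal, the open circle is animal 10, and lines are group means without animal 10. The O2-PBS points lie above all RA-PBS points in every panel but Kcnj8, and the filled O2-IC100 points lie below the O2-PBS points for Cd248, Pdgfrb, Cspg4, Aoc3 and Abcc9 but overlap them for Rgs5, Kcnj8 and Higd1b.

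Among the surface proteins, Cd248 was at 1.85, 2.13, 3.05 and 1.95 CPM in RA-PBS animals 1 to 4, at 17.4, 8.45, 9.39 and 13.5 CPM in O2-PBS animals 5 to 8, and at 3.19, 3.28, 3.7 and 4.46 CPM in O2-IC100 animals 9 to 12. All O2-PBS values lay above all others, and the O2-IC100 values lay above the RA-PBS values without overlap, with animal 10 (3.28 CPM) inside the range of its group. These levels rest on 33 to 55 reads per RA-PBS library, 162 to 289 per O2-PBS library, and 60, 26, 77 and 91 in O2-IC100 animals 9 to 12. The place of animal 10 within its group depends on the scaling. Per exon length and library total (TPM, below) it was at 0.633, against 5.43 to 7.66 in the other O2-IC100 animals. The log2 fold change of O2-PBS over RA-PBS was 2.44 (SE 0.28, edgeR adjusted p = 0.00432), and without animal 10 it was 2.44 (SE 0.25, edgeR adjusted p = 0.000104). Cd248 was called under all 34 alternative settings. Lens transcripts differed between these groups. In RA-PBS animals 1 to 4 crystallins took 0.00691, 1.26, 4.51 and 1.45% of counts, beside Cd248 levels of 1.85, 2.13, 3.05 and 1.95 CPM. Animal 3 was thus the highest of its group in both. The part of lens transcripts in the Cd248 levels was not tested.

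Pdgfrb encodes the receptor through which PDGF-B recruits pericytes. It was at 28.1, 24.4, 26.1 and 13.0 CPM in RA-PBS, at 42.1, 31.4, 30.3 and 38.2 CPM in O2-PBS and at 18.2, 57.1, 18 and 24.3 CPM in O2-IC100. The O2-PBS values lay above the RA-PBS values by a narrow margin, animal 4 was the lowest of all, and animal 10 was the highest. The log2 fold change of O2-PBS over RA-PBS was 0.63 (SE 0.37, edgeR adjusted p = 0.905) with all libraries and 0.63 (SE 0.20, edgeR adjusted p = 0.0713) without animal 10. That second call was lost when animal 4, 5, 6 or 8 was also left out. RA-PBS animal 4 was also the only one of its group with low Y-linked counts. Among the animals with high Y-linked counts, Pdgfrb was 24.4 to 28.1 CPM in 3 RA-PBS animals and 38.2 CPM in 1 O2-PBS animal. Among those with low Y-linked counts it was 13.0 CPM in 1 RA-PBS animal and 30.3 to 42.1 CPM in 3 O2-PBS animals. The part of the Y-linked difference in these levels was not tested.

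Cspg4 was at 6.73, 6.23, 6.55 and 4.63 CPM in RA-PBS, at 18, 12.0, 11.0 and 15.7 CPM in O2-PBS and at 5.00, 19.1, 5.09 and 7.99 CPM in O2-IC100. Every O2-PBS value exceeded every RA-PBS value, and animal 10 was again above all others. The log2 fold change of O2-PBS over RA-PBS was 1.23 (edgeR adjusted p = 0.349), and it was called without animal 10 (SE 0.20, edgeR adjusted p = 0.00271). Aoc3 was at 3.65, 3.67, 3.50 and 3.05 CPM in RA-PBS, at 8.32, 7.09, 6.67 and 10.4 CPM in O2-PBS and at 4.26, 1.89, 4.18 and 4.71 CPM in O2-IC100. Its RA-PBS values were the tightest of any member (coefficient of variation 8.24%), and animal 10 was the lowest of all 12. Aoc3 rose by 1.22 on the log2 scale (edgeR adjusted p = 0.0843, and 0.000762 without animal 10). The call from all 12 libraries was lost when any 1 animal other than animal 10 was left out (adjusted p up to 0.297), whereas the call without animal 10 held when each other animal was also left out.

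Rgs5 had the highest level of the 8 genes. It was at 101, 92.2, 104 and 143 CPM in RA-PBS, at 261, 238, 251 and 344 CPM in O2-PBS and at 235, 26.0, 239 and 278 CPM in O2-IC100. All O2-PBS libraries and the O2-IC100 libraries other than animal 10 lay above the RA-PBS libraries, and animal 10 lay far below them. The log2 fold change of O2-PBS over RA-PBS was 1.31 (edgeR adjusted p = 0.551, and 0.000188 without animal 10), but 0.23 (edgeR adjusted p = 0.768) with the crystallin covariate over all libraries and 1.37 (edgeR adjusted p = 0.00333) with it without animal 10. Higd1b was at 1.01, 0.918, 1.39 and 2.00 CPM in RA-PBS, at 3.32, 3.75, 3.22 and 5.10 CPM in O2-PBS and at 2.71, 0.884, 3.50 and 3.68 CPM in O2-IC100. Its order over the libraries was close to that of Rgs5, with animal 4 highest in RA-PBS, animal 8 highest in O2-PBS and animal 10 lowest of all. Its log2 fold change was 1.53 (edgeR adjusted p = 0.184, and 0.00394 without animal 10).

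The potassium channel subunits differed from each other. Kcnj8, the pore, was at 7.91, 3.86, 5.94 and 6.48 CPM in RA-PBS, at 8.56, 7.35, 8.82 and 11.5 CPM in O2-PBS and at 8.73, 2.90, 8.50 and 10.1 CPM in O2-IC100. RA-PBS animal 1 overlapped the O2-PBS range, and the log2 fold change of 0.58 was not called (edgeR adjusted p = 0.913, and 0.103 without animal 10). When animal 1 was left out as well as animal 10, Kcnj8 was called higher (log2 fold change 0.74, edgeR adjusted p = 0.0438). Abcc9, the regulatory subunit, was at 19.1, 17.1, 19.0 and 12.4 CPM in RA-PBS, at 31.7, 24.5, 26.4 and 32.0 CPM in O2-PBS and at 13.1, 4.17, 16.2 and 18.1 CPM in O2-IC100. Its O2-PBS values lay above all others, and its log2 fold change of 0.76 was called without animal 10 (edgeR adjusted p = 0.00784) but not with all libraries (edgeR adjusted p = 0.688). Per kilobase of exon, the ratio of Kcnj8 to Abcc9 counts was 1.36, 0.742, 1.03 and 1.71 in RA-PBS, 0.887, 0.986, 1.10 and 1.18 in O2-PBS and 2.19, 2.29, 1.72 and 1.83 in O2-IC100. The O2-IC100 ratios lay above all O2-PBS ratios and above all RA-PBS ratios, with animal 10 (2.29) near the rest of its group although both genes were low in it. The margin to RA-PBS animal 4 was narrow. This ratio was chosen after the values were seen and was not tested.

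The second comparison, O2-IC100 against O2-PBS, asked how these genes differed between antibody and placebo after oxygen. Without animal 10, all 3 O2-IC100 animals but only 1 O2-PBS animal had high Y-linked counts, so the antibody and this difference cannot be fully told apart. The mean of all 8 members was lower in O2-IC100 with all libraries, and of 7 members without animal 10. Cd248 was lowest relative to O2-PBS in both, at 3.66 ± 0.578 CPM (SD, n = 4) against 12.2 ± 4.13 CPM (SD, n = 4), a log2 fold change of -1.73, or -1.67 without animal 10. The other surface genes and Abcc9 were also lower, and without animal 10 these 5 genes did not overlap between the groups. The log2 fold changes without animal 10 were -1.21 for Cspg4, -0.87 for Aoc3, -0.84 for Abcc9 and -0.80 for Pdgfrb. Rgs5 (-0.11), Kcnj8 (0.02) and Higd1b (-0.21) overlapped the O2-PBS values. Genes that were lower without overlap made up 17.3% of all tested genes in this fit, and nothing is read from the member count because the rule used this contrast. With all libraries, 3 members did not overlap, Cd248, Aoc3 and Abcc9, against 10.7% of all genes. The median log2 fold change of the members was -0.56, or -0.82 without animal 10, against 0 over all tested genes in both fits. With a Y-linked covariate and without animal 10, the median of the members was -1.14, and Pdgfrb was at -1.26. By p-value Cd248 ranked 1 of 16489 genes with all libraries, followed by Lrrc2 and Nes, and ranked 13 of 16688 without animal 10.

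**Figure D2:**
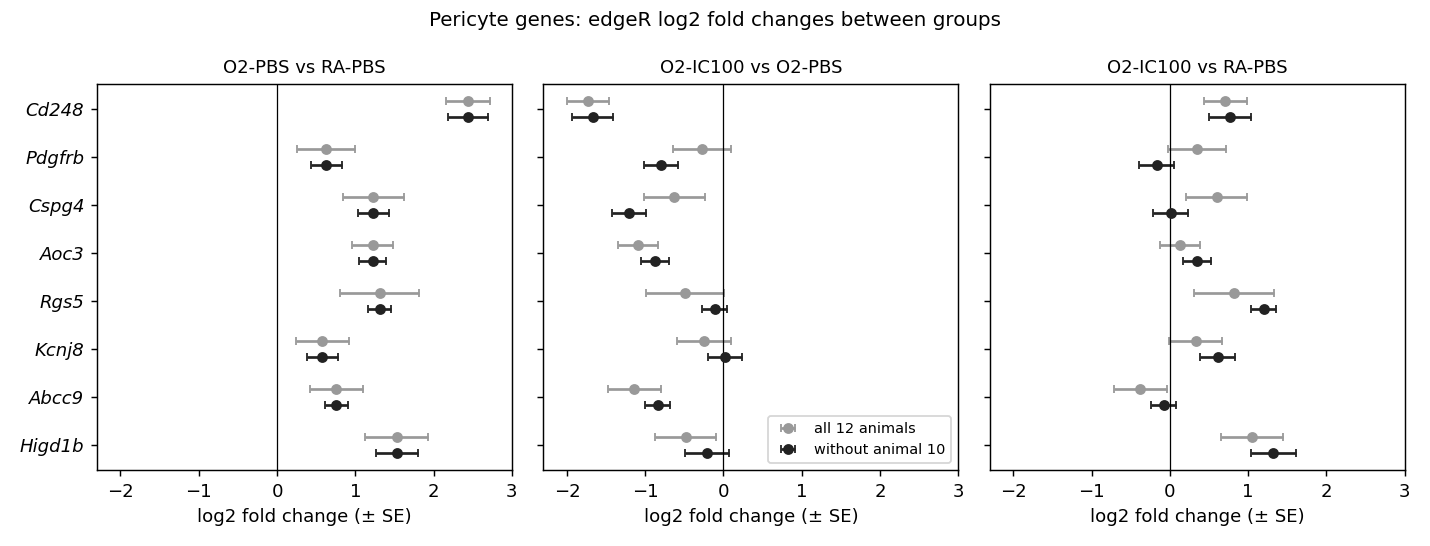
The log2 fold change (horizontal axis, bars ± SE from edgeR) of each pericyte gene (vertical axis) in 3 panels, for O2-PBS over RA-PBS, O2-IC100 over O2-PBS and O2-IC100 over RA-PBS, from all 12 animals (grey) and without animal 10 (black). In the middle panel the black points of Rgs5 (-0.11), Kcnj8 (0.02) and Higd1b (-0.21) lie near 0, and those of the other genes lie at -0.80 or below.

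The third comparison, O2-IC100 against RA-PBS, asked what remained different from room air under the antibody. With all 12 libraries no member was called by edgeR, 2 of 8 having an unadjusted p under 0.05, and DESeq2 also called none. Across all genes edgeR called 0% here, with 2183 genes at an unadjusted p under 0.05, and DESeq2 called 1.21% higher. Without animal 10, Rgs5 and Higd1b were called higher, 2 of 8 against 0.947% of all genes. Rgs5 was at 251 ± 23.7 CPM (SD, n = 3) against 110 ± 22.6 CPM (SD, n = 4), a log2 fold change of 1.20 (SE 0.16, edgeR adjusted p = 0.00551), and remained called when each other animal was also left out. With the crystallin covariate its value was -0.06 with all libraries (edgeR adjusted p = 0.92) and 1.26 without animal 10 (edgeR adjusted p = 0.0117). Higd1b was at 3.30 ± 0.513 CPM against 1.33 ± 0.492 CPM, a log2 fold change of 1.32 (SE 0.29, edgeR adjusted p = 0.0579), and lost its call without animal 2, 9, 11 or 12. Cd248 had a log2 fold change of 0.77 (SE 0.27, edgeR adjusted p = 0.188) and Kcnj8 of 0.61 (SE 0.22, edgeR adjusted p = 0.196), both without overlap and neither called. Aoc3 was at 0.35, Cspg4 at 0.01, Abcc9 at -0.08 and Pdgfrb at -0.17, none of them called, with adjusted p from 0.376 to 0.984. In all, 5 members were higher without overlap when animal 10 was left out, against 5.18% of all genes. The O2-IC100 libraries are shared with the contrast that placed Cd248 on the list.

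Compared per length, as TPM (transcript abundance scaled by the exon length of each gene and by the library total), Rgs5 was the highest member in every group, at 97.6 ± 15.2 TPM in RA-PBS, 277 ± 47.6 TPM in O2-PBS (SD, n = 4 each) and 243 ± 26.6 TPM in O2-IC100 without animal 10 (SD, n = 3). Its lowest value in each group lay above the highest value of the next gene. In RA-PBS the order went on with Pdgfrb (17.1 TPM), Kcnj8 (9.53), Abcc9 (8.23), Higd1b (6.28), Cd248 (3.50), Aoc3 (3.06) and Cspg4 (2.06). Neighbours from Pdgfrb to Higd1b overlapped in their values, as did Cd248 and Aoc3. In O2-PBS Cd248 stood at place 3, at 21.6 ± 7.66 TPM, between Pdgfrb (29.9 TPM) and Higd1b (20.9 TPM) and overlapping both. In O2-IC100 it was back at place 6, at 6.40 ± 1.14 TPM, overlapping Abcc9 (8.32 TPM) and above Aoc3 (4.17 TPM) without overlap. Animal 10 was left out of these levels because crystallins dominate the total its TPM is scaled to, and in it Pdgfrb (5.23 TPM) stood above Rgs5 (2.87 TPM) and Cd248 was at 0.633 TPM. The exon length joins all annotated isoforms, which lowers the TPM of a gene with long minor isoforms.

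**Figure D3:**
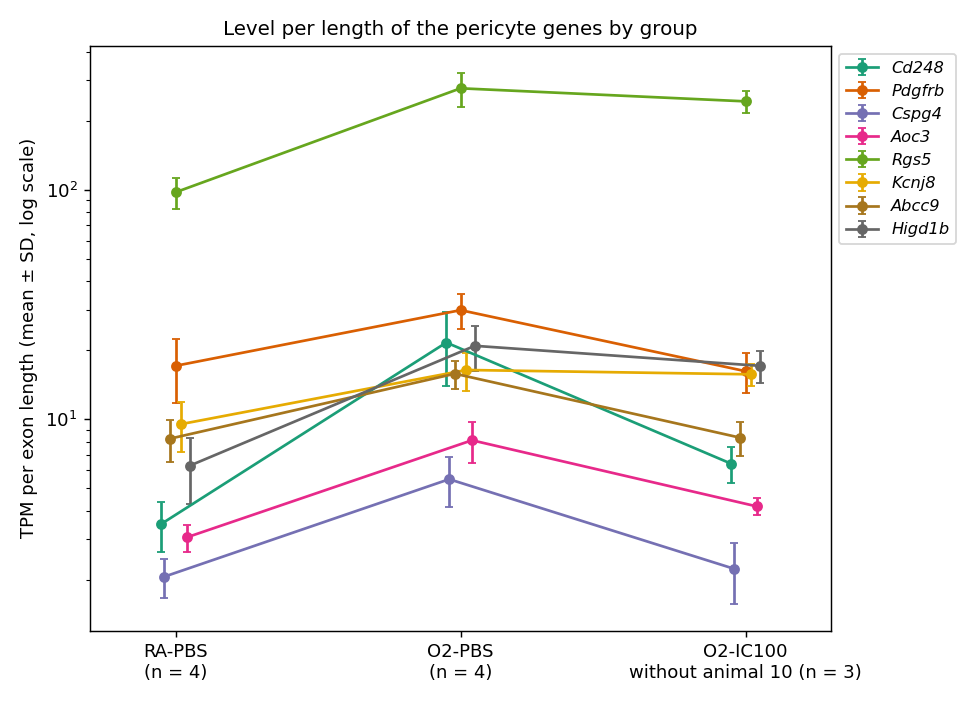
Mean level per exon length (TPM, log axis, bars ± SD) of the 8 pericyte genes in RA-PBS (n = 4), O2-PBS (n = 4) and O2-IC100 without animal 10 (n = 3), with a line for each gene. Cd248 climbs from 3.50 to 21.6 TPM and returns to 6.40 TPM, crossing Higd1b, Kcnj8 and Abcc9, while Rgs5 stays above the others throughout.

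Relative to the mean log2 CPM of the other 7 members in the same library, Cd248 stood at -2.08 ± 0.31 in RA-PBS, -0.73 ± 0.34 in O2-PBS and -1.78 ± 0.07 in O2-IC100 without animal 10 (SD, n = 4, 4 and 3), or -1.59 ± 0.39 with it. Its O2-PBS values (-1.02 to -0.23) did not overlap the RA-PBS values (-2.45 to -1.71). Rgs5 stood at 4.35, 4.45 and 5.14 in the same order, but with animal 10 its O2-IC100 value was 4.45 ± 1.37, as in O2-PBS, and animal 10 alone was at 2.39. Pdgfrb stood at 1.71, 1.09 and 0.97, the last being 1.65 ± 1.36 with animal 10. These distances compare genes within a library and do not depend on library size.

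Over the 11 libraries without animal 10, the log2 CPM of all 28 pairs of members correlated positively, with Pearson's r from 0.25 to 0.98 and a median of 0.76. These points share the group differences and the same library sizes, and the values are given as a description. With animal 10 included, r ranged from -0.31 to 0.93 with a median of 0.605, and 22 of the 28 pairs were positive. Rgs5 and Higd1b formed the closest pair (0.98), followed by Cspg4 with Abcc9 (0.97), Cd248 with Aoc3 (0.96) and Pdgfrb with Abcc9 (0.95). Pdgfrb correlated least with Higd1b (0.25), Kcnj8 (0.28) and Rgs5 (0.29). After removing the group means, Pdgfrb with Abcc9 (0.91), Rgs5 with Higd1b (0.89) and Pdgfrb with Cspg4 (0.86) were still high, while Pdgfrb with Higd1b was -0.47. Kcnj8 correlated with Rgs5 at 0.83 and with Abcc9, the other subunit of its channel, at 0.39. Animal 10 turned Pdgfrb with Rgs5 to -0.31 and with Kcnj8 to -0.25, and took Pdgfrb with Abcc9 to -0.04 and Cspg4 with Abcc9 to 0.08, while Rgs5 with Higd1b was still 0.90.

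**Figure D4:**
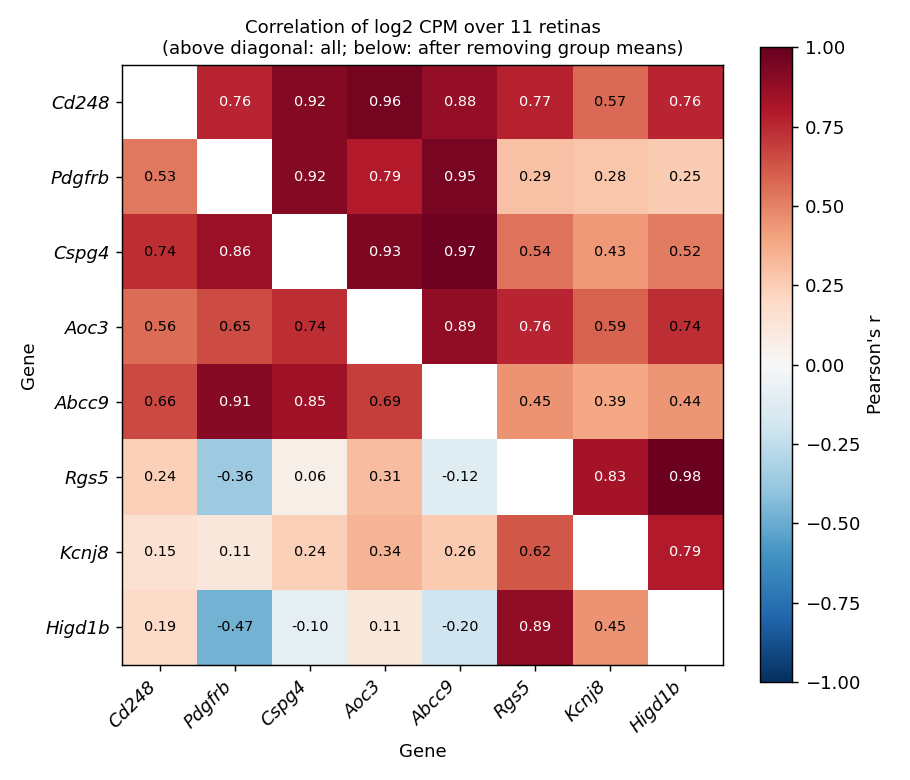
Pearson's r of log2 CPM between pairs of pericyte genes over 11 retinas (both axes list the genes, and colour runs from -1 to 1), with all differences included above the diagonal and group means removed below it. Pdgfrb, Cspg4 and Abcc9 are high with each other (0.92 to 0.97) and at most 0.54 with Rgs5, Kcnj8 and Higd1b, while Cd248 is at 0.76 with Pdgfrb, 0.77 with Rgs5 and 0.76 with Higd1b.

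The 10 genes whose log2 CPM correlated most with Cd248 over these 11 libraries, of 14956 genes compared, were Cald1 (r = 0.983), Nes (0.982), Slc25a37 (0.980), Plxnd1 (0.979), Ackr2 (0.977), Cd93 (0.973), Tspan18 (0.972), Des (0.971), Tgm2 (0.971) and Agtpbp1 (0.971). After the group means were removed, r ranged from 0.659 for Agtpbp1 to 0.920 for Cald1. With animal 10 included, r stayed at 0.971 for Nes and 0.965 for Tgm2 but was 0.334 for Cald1.

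Of 15 genes chosen as paralogues or partners by family, 13 were tested, and 1 was called higher in O2-PBS than in RA-PBS with all libraries, against 0.782% of all genes, and 2 without animal 10, against 4.09%. Both are relatives of Cd248 in the family of C-type lectin-like surface proteins and are found on endothelium. Cd93 was at 73.9 ± 15.1 CPM in O2-PBS against 18 ± 5.84 CPM in RA-PBS (SD, n = 4 each), a log2 fold change of 2.04 (edgeR adjusted p = 0.0345, and 9.53e-05 without animal 10). Clec14a had a log2 fold change of 1.33 (edgeR adjusted p = 0.275, and 0.00331 without animal 10). Kcnj11 (-0.29) and Abcc8 (-0.21), which encode the ATP-sensitive channel of neurons and pancreatic beta cells, and Aoc2 (0.09), the genomic neighbour of Aoc3, were not called. The lowest adjusted p of these 3 without animal 10 was 0.350. In O2-IC100 against O2-PBS without animal 10, Cd93 was called lower (-1.01, edgeR adjusted p = 0.0639), while Clec14a was not called (-0.14). With all libraries none of the 13 was called (5 at an unadjusted p under 0.05, against 2784 of all 16489 genes), and Cd93 was at -1.29 (edgeR adjusted p = 0.287).

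Extracellular binding partners of endosialin were measured as a list of 6. All 6 had higher means in O2-PBS than in RA-PBS. Fn1 (fibronectin) was called with all libraries, at 308 ± 104 CPM against 89.8 ± 29.2 CPM (log2 fold change 1.78, edgeR adjusted p = 0.0947). Without animal 10, Fn1, Mmrn2 (1.67), Col4a1 (1.36), Col4a2 (1.17) and Lgals3bp (0.71) were called higher, 5 of 6 against 4.09% of all genes. Mmrn2 encodes an endothelial matrix protein bound by endosialin and its relatives, and it stood at 11.2 ± 2.04 CPM against 3.53 ± 0.782 CPM. In O2-IC100 against O2-PBS without animal 10, Fn1 was called lower (-1.53, edgeR adjusted p = 0.0484), and Mmrn2 was at -0.75 (edgeR adjusted p = 0.1) without a call. With all libraries none of the 6 was called (2 at an unadjusted p under 0.05, against 2784 of all 16489 genes). Fn1 was at -1.81 (edgeR adjusted p = 0.287), and the median over the 6 was 1.07, against -1.37 without animal 10.

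Other pericyte markers, 25 genes all of which were tested, moved in both directions. With all libraries 1 was called higher in O2-PBS than in RA-PBS, Ndufa4l2, a mitochondrial protein gene known as a target of hypoxia-inducible factor, which rose by 3.60 on the log2 scale, to 56.6 ± 5.38 CPM from 4.67 ± 2.86 CPM (edgeR adjusted p = 0.00495). Without animal 10, 10 were called higher and 2 lower, against 4.09% and 2.18% of all genes. Besides Ndufa4l2 the most abundant of those higher were Mcam (2.06), an adhesion molecule of mural and endothelial cells, S1pr3 (0.79), a sphingosine 1-phosphate receptor, the Notch receptor gene Notch3 (1.14) and the transcription factor gene Foxf2 (1.38). Slc6a20a (-1.02) and Atp13a5 (-1.94), both transporter genes, were lower. Vtn, the most abundant of the 25, was at 506 ± 56.4 CPM against 479 ± 69.4 CPM and was not called. The median log2 fold change was 0.51 over the 25 genes. In O2-IC100 against O2-PBS none was called with all libraries (4 at an unadjusted p under 0.05, against 2784 of all 16489 genes, and 1 called by DESeq2). Without animal 10, 1 was called, Mcam, which was lower by 1.22 on the log2 scale (edgeR adjusted p = 0.0518), against 0.731% of all genes called lower. Ndufa4l2 stood at 32.4 ± 4.02 CPM in O2-IC100 without animal 10 and was called higher than in RA-PBS in that fit (log2 fold change 2.82, edgeR adjusted p = 0.00307).

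Of 21 genes of pericyte recruitment, 3 were called higher in O2-PBS than in RA-PBS with all libraries, against 0.782% of all genes, and 9 without animal 10, against 4.09%, with none lower in either. Of the ligands, Pdgfb, which endothelial tip cells secrete to attract pericytes, was at 18.5 ± 5.57 CPM against 6.25 ± 1.82 CPM, a log2 fold change of 1.56 (edgeR adjusted p = 0.164, and 0.00164 without animal 10). Angpt2, the angiopoietin that loosens the contact of pericytes and endothelium, was at 26.1 ± 9.46 CPM against 5.85 ± 1.38 CPM, with a log2 fold change of 2.16 (edgeR adjusted p = 0.0274). Angpt1, which pericytes make and which stabilizes vessels, was lower without overlap, at 1.68 ± 0.219 CPM against 2.43 ± 0.505 CPM, but was not called (edgeR adjusted p = 1, and 0.207 without animal 10). Of the receptors, Eng (1.48) and Nrp1 (0.85) were called with all libraries, Tie1 (1.41) and Acvrl1 (0.87) were called without animal 10, and the angiopoietin receptor gene Tek (0.20) and Pdgfra (0.50) were not called in either fit. In O2-IC100 against O2-PBS no gene of this list was called with all libraries. At an unadjusted p under 0.05 were 7, against 2784 of all 16489 genes, and DESeq2 called 3. Without animal 10, 5 were called lower, against 0.731% of all genes: Angpt2 (-1.27), Eng (-1.19), Tgfbr2 (-0.80), Tie1 (-0.70) and Acvrl1 (-0.62). Pdgfb was at -0.69 in that comparison (edgeR adjusted p = 0.191). The lists of markers, partners and relatives were chosen with earlier results of these data known.

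Markers of other cell types were measured in the same libraries. Summed endothelial markers were 289 to 392 CPM in RA-PBS, 546 to 632 CPM in O2-PBS and 385 to 434 CPM in O2-IC100 without animal 10. The shares of all genes called higher were 0.782% with all libraries and 4.09% without animal 10, and 2.18% were called lower without it. With all libraries, 1174 of 16489 genes had an unadjusted p under 0.05 in O2-PBS against RA-PBS. In O2-IC100 the counts were 2183 against RA-PBS and 2784 against O2-PBS. Of 14 endothelial genes, 2 were called higher in O2-PBS than in RA-PBS with all libraries, Cdh5 (1.67) and Egfl7 (1.17), and 11 were called higher and 1 lower, Slco1a4 (-1.33), without animal 10. Smooth muscle markers summed to 295 to 430 CPM in RA-PBS, 375 to 510 CPM in O2-PBS and 318 to 361 CPM in O2-IC100 without animal 10. The RA-PBS range overlapped both others, while this O2-IC100 range lay below the O2-PBS range, with animal 10 at 934 CPM. Of 11 tested, 2 were called higher with all libraries, Des (1.85) and Actg2, which was near 0 in RA-PBS, and 7 without animal 10, among them Smtn (0.77), Acta2 (1.32), Myl9 (0.99), Tagln (1.28) and Tpm2 (1.64), while Myh11 (0.23), a defining marker of smooth muscle, was not called. Cnn1 and Pln did not pass the filter. Fibroblast markers summed to 32.6 to 121 CPM in RA-PBS, 88.4 to 137 CPM in O2-PBS and 64.4 to 81.2 CPM in O2-IC100 without animal 10. Again the RA-PBS range overlapped both others, and this O2-IC100 range lay below the O2-PBS range. Of 8 tested, none was called with all libraries (2 at an unadjusted p under 0.05) and 2 without animal 10, Col3a1 (1.68) and Mgp (1.48), with Lum and Dpt under the filter. Summed Müller glia markers were lower in O2-PBS (2930 to 3250 CPM) than in RA-PBS (3730 to 5020 CPM), and rod markers overlapped. Without animal 10, 6 of 10 pigment epithelium genes and all 13 tested lens genes were called lower in O2-PBS than in RA-PBS. With all libraries none of them was called (0 and 10 at an unadjusted p under 0.05). Microglia markers summed to 51 to 97.1 CPM in RA-PBS, 91 to 115 CPM in O2-PBS and 108 to 132 CPM in O2-IC100 without animal 10. Of 10, 3 were called higher in O2-PBS and 5 in O2-IC100 than in RA-PBS without animal 10, the latter against 0.947% of all genes, and none with all libraries (2 and 9 at an unadjusted p under 0.05). In O2-IC100 against O2-PBS without animal 10, 12 of 14 endothelial, 11 of 11 smooth muscle and 6 of 8 fibroblast genes had lower means. Their median log2 fold changes were -0.47, -0.94 and -0.53, and 4, 3 and 1 were called lower, against 0.731% of all genes. With all libraries the medians were -0.82, -0.3 and 0.84, and none was called (8, 1 and 2 at an unadjusted p under 0.05). The part of these cell types in the results on the pericyte genes was not tested.

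In normalized CPM, animal 10 differed from the rest of its group in both directions. Against the other O2-IC100 libraries it was higher in Pdgfrb (57.1 CPM) and Cspg4 (19.1 CPM), lower in Rgs5, Kcnj8, Abcc9, Higd1b and Aoc3, and within the range of the rest in Cd248. These directions depend on its TMM factor of 0.324. In TPM, scaled to a total that crystallins dominate, Pdgfrb was at 5.23 against a mean of 16.2 in the other O2-IC100 libraries. Cspg4 was at 0.802 against 2.23 TPM and Cd248 at 0.633 against 6.40 TPM, so every member was lower in animal 10 on that scale. In that library pigment epithelium markers summed to 6050 CPM against 40.4 to 184 CPM in the other 11, red blood cell markers to 8240 CPM against 83.6 to 259 CPM, fibroblast markers to 594 CPM against 32.6 to 137 CPM and microglia markers to 454 CPM against 51 to 132 CPM. Their part in the levels of the pericyte genes was not tested.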

How the data were processed

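Retinas of 12 mice were sequenced, 1 library per animal (polyA selection, paired ends of 150 bp). The authors made estimated counts per Ensembl gene with kallisto (mouse build GRCm39) and tximport, and these deposited expected counts were used here after rounding, since 42.2% of the values were not whole. Symbols were matched for 35374 of 36131 IDs. The tool versions of the authors are not given in the sources used here, and the sources differ on the RNA kit. No column of the table was left unused.

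Counts were fitted in 1 model of 3 groups with edgeR 4.0.16 in R 4.3.3 (TMM, filterByExpr, robust quasi-likelihood F test, two-sided, Benjamini-Hochberg adjustment), which tested 16489 genes, or 16688 without animal 10. DESeq2 1.42.0, other scalings and filters, covariates and leaving out animals were alternatives. On simulated counts with 200 genes changed 3-fold between O2-PBS and RA-PBS (16432 genes), edgeR recovered 100% and made 6 false calls. The simulated libraries shared a mean profile taken without animal 10 and had the same low spread for every gene. They held no lens-rich library, so this recovery does not give the power of the fit of all 12 libraries. Normalized CPM used TMM-scaled library sizes, and correlations used log2(CPM + 0.1). No duplicate libraries were found (highest r between libraries 0.9943). Labels call the samples separate animals. kallisto apportions reads shared by paralogues, so counts of near-identical sequences are estimates. Depth limits the precision of low genes, and 3 reads equal at most 2.01e-05% of a library.

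The members and lists were chosen with earlier results of these data known. Named in the text are the 8 members, up to 5 genes per list and direction called in O2-PBS against RA-PBS with the highest mean CPM, 12 further genes of the pathway and families, and the 10 genes most like Cd248 (mean CPM of at least 1). Exceptions named after their values were seen are Vtn, Egfl7, Actg2, Myh11, Cnn1, Pln, Lum, Dpt, Tgfbr2, Lrrc2 and the Kcnj8 to Abcc9 ratio. Sequences came from RefSeq promoter entries on GRCm38.p6.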

Additional observations from a re-analysis of the deposited data

Results flagged for a closer look

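Of 24 groups of 4 values checked (8 genes in 3 groups), 2 held a sample far from the other 3 by Dixon's criterion, and chance flags about 1 in 20. Both came from animal 10 of the O2-IC100 group, the library rich in lens transcripts. Its Pdgfrb level was 57.1 CPM, with a gap to the next sample of 0.839 of the whole range. Its Rgs5 level was 26.0 CPM, with a gap of 0.830 of the range.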

How the results depend on the processing

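Of 34 alternatives, Cd248 kept its direction and its call in O2-PBS against RA-PBS under every one (log2 fold change 2.22 to 2.66, adjusted p 2.5e-17 to 0.0311). The count of members called there, 2, was 7 with DESeq2 without animal 10 and with a Y-linked covariate without animal 10, 6 in the fit of both groups alone, 4 with a crystallin covariate (with Rgs5 at 0.23, Kcnj8 at 0.04 and Abcc9 at 0.19), 6 with that covariate without animal 10 (chosen after seeing the data) and 1 without a filter on low counts. In O2-IC100 against RA-PBS the count, 0, was 2 with DESeq2 without animal 10, with the crystallin covariate (Cd248 higher, Abcc9 lower), with that covariate without animal 10 (Rgs5 and Higd1b) and with the Y-linked covariate without animal 10. The share of all genes called higher in O2-PBS against RA-PBS also changed with the setting. It was 0.782% with all libraries, 4.09% without animal 10 and 3.53% in the fit of both groups alone. The shares under the covariates and other scalings are not given here. These counts and those below are therefore not read as results about the lists.

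For other pericyte markers in O2-PBS against RA-PBS the count, 1, was 8 with DESeq2, 12 with DESeq2 without animal 10, 2 with RLE size factors, 3 with upper quartile scaling, 8 in the fit of both groups alone, 14 with the crystallin covariate, 15 with it without animal 10 and 9 with the Y-linked covariate without animal 10. For pericyte recruitment the count, 3, was 6, 9, 9, 10, 11 and 9 with DESeq2, DESeq2 without animal 10, the fit of both groups alone, the crystallin covariate, that covariate without animal 10 and the Y-linked covariate without animal 10. In O2-IC100 against O2-PBS the count of other markers, 0, was 1 with DESeq2, 2 with DESeq2 without animal 10 and 1 with the crystallin covariate without animal 10, and that of recruitment genes, 0, was 3, 6, 5 and, with the Y-linked covariate without animal 10, 1.

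Leaving out 1 animal, or animal 10 and 1 other (chosen after seeing the data), gave 1 to 8 members called in O2-PBS against RA-PBS, the 1 in every case being Cd248, and 0 to 3 in O2-IC100 against RA-PBS. The same fits gave 1 to 12 other markers and 0 to 10 recruitment genes called in O2-PBS against RA-PBS, and 0 to 3 and 0 to 5 in O2-IC100 against O2-PBS. The cause was not tested beyond leaving out animals.

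In O2-IC100 against RA-PBS some values changed sign. Pdgfrb, 0.35 with all libraries, was -0.19 with DESeq2 and -0.32 with the Y-linked covariate, both without animal 10, -0.39 with the crystallin covariate without animal 10, and -0.36 to 0.53 over the fits that left out 1 animal, or animal 10 and 1 other. Cspg4, 0.60 with all libraries, was 0, -0.09 and -0.12 in the first 3 of those fits and -0.24 to 0.81 over all. With the crystallin covariate over all libraries Aoc3, 0.13 without it, was -0.08, and Rgs5, 0.82 without it, was -0.06, but without animal 10 the covariate left Rgs5 at 1.26. Abcc9, -0.38 with all libraries, was -0.75 to 0.04 over all alternatives and -0.58 to 0.04 when animals were left out. The cause was not tested. No paired analysis was possible because the replicate numbers 1 to 12 are not shared between groups. Low genes such as Higd1b and Cd248 in RA-PBS are limited by depth.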
